A study of Homo sapiens with 6 samples.

Results

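Complexes III and IV of the respiratory chain and the proteins that assemble them were described in H69AR cells given Supinoxin, through 48 nuclear-encoded, protein-coding genes of the 60605 gene identifiers in the deposited table. The members were named by symbol from what is known of their role. They comprise 9 subunits of complex III, 6 of its assembly factors, cytochrome c, 14 subunits of complex IV including tissue isoforms, and 18 of its assembly factors, and each symbol matched 1 Ensembl gene. H69AR is an established small cell lung cancer line, a multidrug-resistant derivative of NCI-H69, and both groups of the series are this same line with no genetic change named. The tested cells received 70 nM Supinoxin (RX-5902), a compound reported to bind the RNA helicase DDX5, when confluent. The others are titled as without it, but the treatment text naming 70 nM Supinoxin is repeated on them. The groups here follow the titles. Duration and vehicle are not stated in the labels. Each group held 3 libraries, and whether these were separate cultures is not stated in the labels, so p-values measure the spread between libraries, which may be technical.

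Complex III (ubiquinol-cytochrome c reductase) passes electrons from ubiquinol to cytochrome c, and complex IV (cytochrome c oxidase) passes them on to oxygen. Both pump protons across the inner mitochondrial membrane. Their catalytic cores mix proteins encoded by mitochondrial DNA (cytochrome b in complex III, COX1 to COX3 in complex IV) with nuclear-encoded subunits that are imported, and assembly factors insert haem, copper and iron-sulphur centres and guard half-built intermediates. Hypoxic cells are known to exchange the ubiquitous isoform COX4I1 for COX4I2, which makes the isoform pairs of interest here.

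Libraries held 34966826 to 36039854 counts with Supinoxin and 30136963 to 39402804 without. Levels are given in CPM, counts divided by TMM-scaled library size (trimmed mean of M values) and expressed per 1e6, where 1 CPM stood for 36.2 to 38.2 counts with Supinoxin and 30.7 to 34.9 without. A share of a bulk RNA pool cannot tell less RNA per cell from fewer cells that express a gene. Untreated replicate 1 stood apart for the members and was the highest untreated library for 28 of the 38 members tested, so results are also given without it. Its log2 CPM minus the mean of untreated replicates 2 and 3 had a median of 0.47 over the members tested and -0.02 over all genes tested. The labels call the cells epithelial. Of 6 epithelial markers, EPCAM was lower with Supinoxin, at 1.22 ± 0.20 CPM against 10.3 ± 1.23 CPM in untreated cells (SD, n = 3 each; log2 -3.08, edgeR adjusted p = 1.9e-05). CLDN4 was higher (log2 0.78, adjusted p = 0.0321), KRT8 (-0.55) and KRT18 (-0.18) did not pass, and KRT19 and CDH1 were near 0. Among neuroendocrine markers, INSM1 (log2 -0.72, edgeR adjusted p = 0.00398), DLL3 (-0.90, 0.0132) and NCAM1 (-1.53, 0.000991) were lower, SYP and CHGA did not pass, and NEUROD1 was listed at 0 in every library. The epithelial list summed to 140.3 to 151.7 CPM with Supinoxin and 168.3 to 290.1 CPM without. ABCC1, the drug exporter for which H69AR is known, stood at 10116 to 10719 CPM with Supinoxin and 3095 to 4047 CPM without. Markers of leukocytes summed to 1.35 to 1.59 CPM with Supinoxin and 1.55 to 2.22 without. The summed stromal and endothelial list stood at 9209 to 10126 CPM with Supinoxin and 3683 to 5238 CPM in untreated cells, nearly all of it COL1A1 and COL1A2, with DCN, PDGFRB, PECAM1 and VWF each under 1 CPM in every library. The part of these genes in the results below was not tested.

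Transcripts of the subunits were lower with Supinoxin almost throughout, whereas assembly factors were divided. Of the 38 members with enough counts to be tested, 27 were lower, 1 was higher and 10 did not pass (edgeR quasi-likelihood test, Benjamini-Hochberg adjusted p under 0.05). Over all 15947 genes tested, 25.2% were lower and 23.4% higher by the same rule. Among subunits of both complexes 18 of 19 tested were lower and 0 higher, with a median log2 fold change of -1.27. Among assembly factors 8 of 18 tested were lower and 1 higher, with a median of -0.32, against -0.0004 over all genes tested. A fall of at least 2-fold was called for 14 subunits and 3 assembly factors, where 11.6% of all genes tested met that rule. Without untreated replicate 1 these counts were 9 subunits and 1 assembly factor (SURF1), where 8.36% of all genes tested met it. In CPM, every Supinoxin library lay below every untreated library for 29 of the 38 members and above them for 1, while these arrangements held for 31.1% and 31.3% of all genes tested. The call of lower held with all libraries and in each of the 13 alternative analyses for 23 members, of which 17 are subunits and 5 assembly factors.

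**Figure D1:**
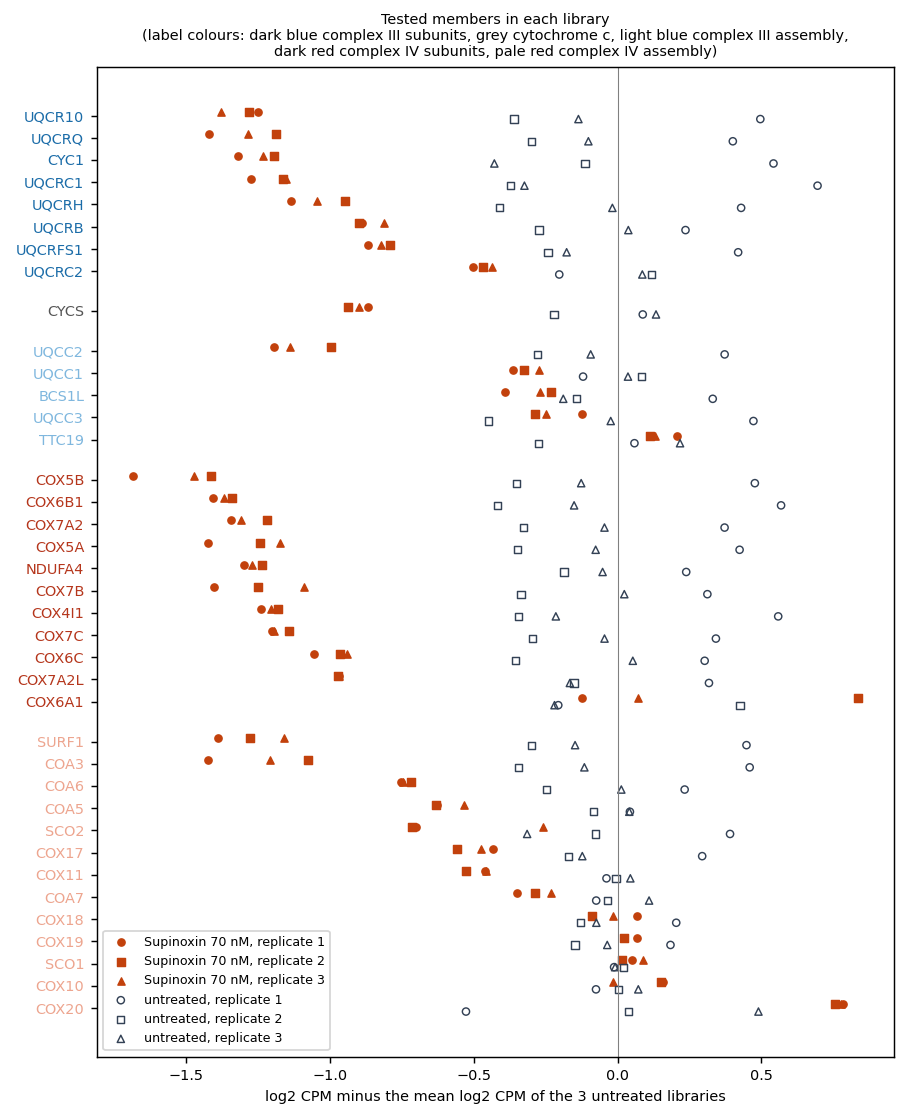
Level of each tested member in each library, as log2 CPM minus the mean log2 CPM of the 3 untreated libraries, with filled symbols for Supinoxin and open symbols for untreated cells. Rows are grouped by role and ordered by fold change. All filled symbols of the subunits except COX6A1 lie left of the open ones, while for COX10, COX18, COX19 and SCO1 filled and open symbols overlap.

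Complex III subunits fell in 8 of 8 tested members, with log2 fold changes from -1.35 to -0.48 and a median of -1.18. UQCR10, a small subunit (ENSG00000184076, chromosome 22, 29767369 to 29770413, GRCh38), had 24.9, 24.4 and 22.8 CPM with Supinoxin, against 83.6, 46.2 and 53.9 CPM in untreated libraries. The groups did not overlap, and its fall of 2.55-fold (log2 -1.35, SE 0.21, edgeR adjusted p = 0.0011) was the greatest of these 8. UQCRQ, a subunit next to cytochrome b (ENSG00000164405, chromosome 5, 132866630 to 132868847), had 54.8, 64.4 and 60.2 CPM with Supinoxin, against 193.8, 119.3 and 136.8 CPM without it, a fall of 2.51-fold (SE 0.19 on the log2 scale, edgeR adjusted p = 0.000736). The catalytic subunits CYC1, which is cytochrome c1, and UQCRFS1, the Rieske iron-sulphur protein, fell 2.47-fold and 1.81-fold. The 2 core proteins were both lower. UQCRC1 had 215, 232 and 234 CPM with Supinoxin and 843, 402 and 416 CPM in untreated cells, 2.44-fold lower (edgeR adjusted p = 0.00405). UQCRC2 (ENSG00000140740, chromosome 16, 21953288 to 21983660) had 122, 125 and 128 CPM with Supinoxin and 151, 188 and 184 CPM in untreated cells, 1.39-fold lower (log2 -0.48, SE 0.13, edgeR adjusted p = 0.0153). Without untreated replicate 1 the log2 fold changes were -0.84 for UQCRC1 and -0.56 for UQCRC2, and the difference between them was not tested. UQCRC2 was the one complex III subunit that was lowest, not highest, in untreated replicate 1 among untreated libraries, and its adjusted p was 0.0671 to 0.0821 when a Supinoxin library was left out, which ends the call, as does scaling by library size alone (adjusted p = 0.105). UQCRH, the hinge protein that contacts cytochrome c1, and UQCRB fell 2.12-fold and 1.84-fold. Without untreated replicate 1 the class median was -0.83 and all 8 were lower.

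Cytochrome c, encoded by CYCS (ENSG00000172115, chromosome 7, 25118656 to 25125260), carries electrons from complex III to complex IV and triggers apoptosome formation when released. CYCS had 182, 174 and 179 CPM with Supinoxin, against 354, 286 and 365 CPM in untreated libraries. The groups were apart, with a fall of 1.88-fold (log2 -0.91, SE 0.14, edgeR adjusted p = 0.000967), and the value hardly moved without untreated replicate 1 (-0.86). The table lists 42 CYCS pseudogenes, which together held 11 counts over all 6 libraries, 0.0207% of those of CYCS.

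Complex III assembly factors were mixed, with 2 of 5 tested members lower, 0 higher and a median log2 fold change of -0.32. The median was -0.12 without untreated replicate 1, -0.15 with the length and GC offset and -0.16 with library size alone. UQCC2, which with UQCC1 binds newly made cytochrome b (ENSG00000137288, chromosome 6, 33694293 to 33711727), had 43.2, 49.6 and 44.9 CPM with Supinoxin, against 128.2, 81.6 and 92.8 CPM in untreated cells. It fell 2.20-fold (log2 -1.13, SE 0.18, edgeR adjusted p = 0.0011). ITPR3, on the opposite strand, shares 21.9% of the exonic bases of UQCC2 and had 7156 to 7781 counts with Supinoxin and 3139 to 5714 without. UQCC2 had 1628 to 1872 counts with Supinoxin and 2847 to 4329 without. Its partner UQCC1 (ENSG00000101019, chromosome 20, 35302566 to 35412031) had 49.8, 51.2 and 53.0 CPM with Supinoxin and 59.0, 67.9 and 65.7 CPM in untreated cells, 1.25-fold lower (SE 0.12 on the log2 scale, edgeR adjusted p = 0.0476). The call of UQCC1 was made in 5 of the 13 alternatives, over which its adjusted p ran from 0.000535 to 0.328, and it was lost on leaving out any 1 Supinoxin library, untreated replicate 2 or untreated replicate 3, with library size alone, with no filter and with the replicate block. BCS1L, the ATPase that moves the Rieske protein into the complex, had 32.4, 36.3 and 35.4 CPM with Supinoxin and 53.6, 38.6 and 37.4 CPM in untreated cells, and the log2 fold change of -0.32 did not pass (SE 0.16, edgeR adjusted p = 0.129). BCS1L depended on untreated replicate 1, since the value was -0.12 without it. BCS1L shares 13.5% of its exonic bases with ZNF142 on the opposite strand. ZNF142 had 2112 to 2219 counts with Supinoxin and 815 to 1351 without, against 1241 to 1369 and 1146 to 1809 for BCS1L. TTC19, which clears fragments of the Rieske protein, had 57.5, 53.8 and 54.5 CPM with Supinoxin and 51.8, 41.1 and 57.9 CPM without (log2 0.14, SE 0.15, edgeR adjusted p = 0.461). UQCC3, which acts after UQCC1 and UQCC2, had 2.59, 2.31 and 2.37 CPM with Supinoxin and 3.91, 2.06 and 2.77 CPM in untreated cells (log2 -0.27, SE 0.25, edgeR adjusted p = 0.401). The groups of TTC19 and UQCC3 overlapped. UQCC3 shares 40.8% of its exonic bases with LBHD1 on the opposite strand. LBHD1 had 66 to 92 counts with Supinoxin and 47 to 57 without, against 86 to 99 and 72 to 132 for UQCC3.

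Complex IV subunits fell in 10 of 11 tested members, 9 of them by at least 2-fold, with a median log2 fold change of -1.27. COX5B, a zinc-binding subunit on the matrix side (ENSG00000135940, chromosome 2, 97646062 to 97648383), had 56.2, 67.8 and 65.1 CPM with Supinoxin, against 251.3, 141.6 and 165.4 CPM in untreated libraries. Its fall of 2.95-fold (log2 -1.56, SE 0.21, edgeR adjusted p = 0.000619) exceeded that of any other tested member, and without untreated replicate 1 it was -1.28 on the log2 scale. NDUFA4, once assigned to complex I and now to complex IV (ENSG00000189043, chromosome 7, 10931943 to 10940153), had 93.3, 97.3 and 95.1 CPM with Supinoxin and 270.8, 201.7 and 221.4 CPM in untreated cells. NDUFA4 had the smallest p of all members, at -1.28 on the log2 scale or 2.43-fold lower (SE 0.14, edgeR adjusted p = 0.000273). COX5A, COX6B1, which lies toward cytochrome c, COX6C, COX7B and COX7C fell between 2.02-fold for COX6C and 2.70-fold for COX6B1, each with the groups apart. Without untreated replicate 1 the class median was -1.03 and 10 members were lower.

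The exception was COX6A1 (ENSG00000111775, chromosome 12, 120438090 to 120440737), the ubiquitous form of a subunit found in most tissues. It was listed with only 12, 23 and 13 counts with Supinoxin and 10, 16 and 9 counts in untreated libraries, which is 0.43 ± 0.16 CPM and 0.35 ± 0.09 CPM (SD, n = 3 each). Its difference of 0.28 on the log2 scale (edgeR adjusted p = 0.596, SE 0.42) was within the spread between libraries. Per kilobase of canonical transcript COX6A1 had 0.80 CPM with Supinoxin and 0.65 CPM without, where COX5B had 91.3 CPM with Supinoxin and 269.7 CPM without. The 7 listed COX6A1 pseudogenes together held 182 counts, against 83 for COX6A1. By library these pseudogenes had 20, 22 and 18 counts with Supinoxin and 53, 27 and 42 counts in untreated libraries, a difference that was not tested. Whether reads of COX6A1 were listed under its pseudogenes was not tested either. Of the exonic bases of COX6A1, 13.1% also belong to a same-strand gene.

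**Figure D2:**
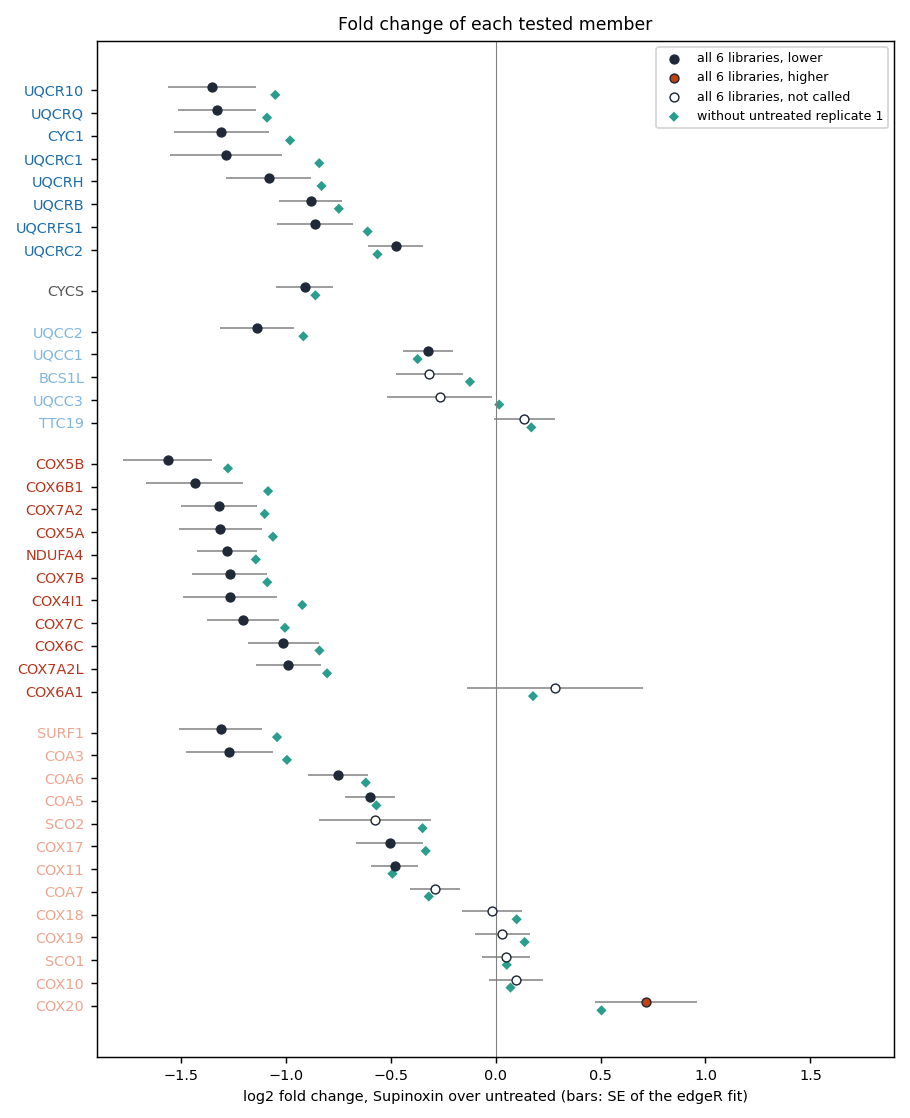
Log2 fold change of each tested member, Supinoxin over untreated, with the SE of the fit as bars. Dark circles were lower, the orange circle (COX20) higher and open circles not called with all 6 libraries, and green diamonds give the value without untreated replicate 1, which lies nearer 0 for most subunits but stays below -0.56 for all 18 that were called.

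The isoform pairs were set apart by level. Per kilobase of the canonical transcript, COX4I1, the ubiquitous form of the subunit that binds regulatory ATP (ENSG00000131143, chromosome 16, 85798633 to 85807068), stood at 219 ± 4.57 CPM per kilobase with Supinoxin and 527 ± 190 CPM per kilobase without (SD, n = 3 each). COX4I2, its hypoxia-linked lung form (ENSG00000131055), stood at 0.20 ± 0.04 CPM per kilobase with Supinoxin and 0.27 ± 0.35 CPM per kilobase without. COX4I1 had 164, 171 and 168 CPM with Supinoxin and 569, 305 and 333 CPM in untreated cells, a fall of 2.40-fold (log2 -1.27, SE 0.22, edgeR adjusted p = 0.00198). COX4I2 had 5, 4 and 6 counts with Supinoxin and 15, 0 and 3 counts in untreated libraries, under the filter for testing. The log2 ratio of COX4I2 to COX4I1 averaged -9.98 ± 0.31 with Supinoxin and -11.86 ± 2.10 without, and the groups overlapped (two-sided exact permutation p = 0.2, where 0.1 is the smallest that 3 against 3 libraries can give). The difference of 1.89 rested on the untreated library with 0 counts and so on the prior count of 0.5: it was 0.73 without that library, 2.78 without untreated replicate 1 and 1.36 with a prior count of 2. No rise of COX4I2 was detectable at this depth.

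COX7A2, the liver-type form of another small subunit (ENSG00000112695, chromosome 6, 75237675 to 75250323), had 65.9, 71.9 and 67.5 CPM with Supinoxin and 216.5, 133.4 and 162.1 CPM in untreated cells, 2.49-fold lower (SE 0.18 on the log2 scale, edgeR adjusted p = 0.000634). COX7A1, its heart and muscle form (ENSG00000161281), had 16, 15 and 9 counts with Supinoxin and 5, 8 and 6 counts in untreated libraries. COX7A1 was under the filter, and with no filter its log2 fold change of 0.91 did not pass (edgeR adjusted p = 0.251). The log2 ratio of COX7A1 to COX7A2 per kilobase averaged -7.13 ± 0.39 with Supinoxin and -9.24 ± 0.65 without, a difference of 2.11 with groups apart (two-sided exact permutation p = 0.1, n = 3 each, the smallest possible). COX7A2L (ENSG00000115944, chromosome 2, 42333546 to 42425088), a paralogue that joins complexes III and IV into supercomplexes, had 58.4, 58.3 and 58.4 CPM with Supinoxin and 142.5, 102.9 and 101.9 CPM in untreated cells, 1.98-fold lower (SE 0.16 on the log2 scale, edgeR adjusted p = 0.00116). The log2 ratio of COX7A2L to COX7A2 was -2.53 ± 0.07 with Supinoxin and -2.85 ± 0.15 without. That is a difference of 0.32 (two-sided exact permutation p = 0.1, n = 3 each, the smallest possible). It was not seen once trends of length and GC content were removed. The log2 fold changes were then nearly equal, at -1.11 for COX7A2L and -1.12 for COX7A2. Their ratio was not tested in that setting.

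**Figure D3:**
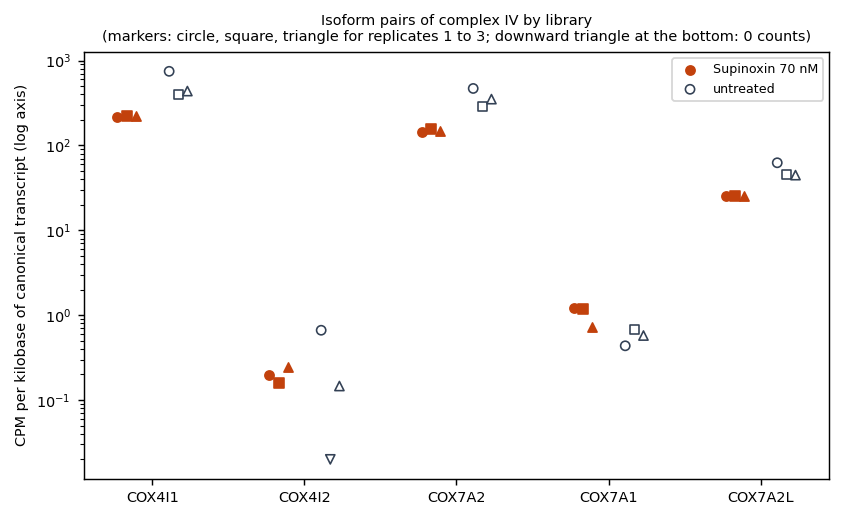
CPM per kilobase of canonical transcript, on a log axis, of 5 complex IV isoform genes in each library, with Supinoxin left of untreated cells. COX4I1 and COX7A2 lie more than 100 times above COX4I2 and COX7A1 in every library, and the downward triangle marks the untreated library with 0 COX4I2 counts.

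Complex IV assembly factors split by gene. Of 13 tested, 6 were lower, 1 higher and 6 not called, with a median log2 fold change of -0.48, which was -0.33 without untreated replicate 1 and -0.29 with the length and GC offset. The greatest falls were of SURF1, which helps to build the haem a3 centre of COX1, and COA3, which stabilises newly made COX1. SURF1 (ENSG00000148290, chromosome 9, 133351758 to 133356676) had 16.3, 17.6 and 19.1 CPM with Supinoxin, against 58.2, 34.7 and 38.5 CPM in untreated libraries, 2.48-fold lower (log2 -1.31, SE 0.20, edgeR adjusted p = 0.00099). COA3 (ENSG00000183978, chromosome 17, 42795147 to 42798704) had 21.0, 26.7 and 24.4 CPM with Supinoxin, against 77.4, 44.4 and 52.0 CPM in untreated cells, 2.41-fold lower (SE 0.21 on the log2 scale, edgeR adjusted p = 0.00141). Both were in the range of the subunits. COA3 shares 42.3% of its exonic bases with WNK4 on the opposite strand. WNK4 had 77 to 80 counts with Supinoxin and 25 to 37 without, and COA3 had 803 to 1007 with Supinoxin and 1547 to 2614 without.

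Among factors of copper delivery, 3 were lower. COX17, which hands copper to SCO1 and COX11, fell by 0.50 on the log2 scale (edgeR adjusted p = 0.0276), COX11, which builds the copper centre of COX1, by 0.48 (adjusted p = 0.00701), and COA6, needed for the copper centre of COX2, by 0.75 (adjusted p = 0.00275). COX17 lost its call on leaving out any 1 Supinoxin library, under library size alone and under the length and GC offset (adjusted p = 0.0806 to 0.111), and COX11 did not pass without Supinoxin replicate 2 (adjusted p = 0.0537) or with library size alone. SCO1, which loads copper into COX2, had 29.0, 28.3 and 29.7 CPM with Supinoxin and 27.8, 28.4 and 27.8 CPM in untreated cells (log2 0.05, SE 0.11, edgeR adjusted p = 0.728), but it was lower after the length and GC offset (-0.27, adjusted p = 0.0469). COX19, which keeps COX11 working, had 23.6, 22.9 and 22.8 CPM with Supinoxin and 25.6, 20.3 and 21.9 CPM in untreated cells (log2 0.03, SE 0.13, edgeR adjusted p = 0.858). SCO2, the paralogue of SCO1, had 1.1, 1.09 and 1.49 CPM with Supinoxin and 2.34, 1.69 and 1.43 CPM in untreated cells (log2 -0.57, SE 0.27, edgeR adjusted p = 0.103). Its value was -0.35 without untreated replicate 1, 0.09 after the length and GC offset, and -0.72 without untreated replicate 3, where it was lower (adjusted p = 0.0497; the 13 alternatives gave 0.0497 to 0.738). SCO2 shares 62.1% of its exonic bases with NCAPH2 on the opposite strand, which had 3452 to 3879 counts with Supinoxin and 4542 to 9556 without, against 41 to 54 and 44 to 79 for SCO2.

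Among the others, COX10, which makes haem O as the precursor of haem A (ENSG00000006695, chromosome 17, 14069490 to 14231736), had 18.1, 18.1 and 16.1 CPM with Supinoxin and 15.5, 16.3 and 17.1 CPM in untreated cells (log2 0.10, SE 0.13, edgeR adjusted p = 0.547). COX18, which moves the tail of COX2 across the membrane (ENSG00000163626, chromosome 4, 73052362 to 73069755), had 16.5, 14.9 and 15.6 CPM with Supinoxin and 18.2, 14.4 and 15.0 CPM in untreated cells (log2 -0.02, SE 0.14, edgeR adjusted p = 0.927). For both the groups overlapped. COA5 fell 1.51-fold (edgeR adjusted p = 0.00326), with the groups apart. COA7 had 42.5, 44.4 and 46.2 CPM with Supinoxin and 51.5, 52.9 and 58.5 CPM in untreated cells, groups that did not overlap, and its log2 fold change of -0.29 did not pass (SE 0.12, edgeR adjusted p = 0.068). It did pass without untreated replicate 1 (adjusted p = 0.00992), after the length and GC offset (0.0128) and in DESeq2 (0.0413), and the range over all alternatives was 0.00992 to 0.415.

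The single rise was of COX20, a chaperone of COX2 (ENSG00000203667, chromosome 1, 244835616 to 244845057). COX20 had 5.44, 5.33 and 5.41 CPM with Supinoxin, against 2.19, 3.24 and 4.43 CPM in untreated libraries. The groups were apart, the untreated libraries were spread over a wide range, and the rise was 1.64-fold (log2 0.72, SE 0.24, edgeR adjusted p = 0.0352). The call was lost on leaving out any 1 Supinoxin library or untreated replicate 2 (adjusted p = 0.0854 to 0.0922), over a range of 0.00634 to 0.0922 in all alternatives. COX20 shares 76.6% of its exonic bases with HNRNPU on the opposite strand, which held 42889 to 44040 counts with Supinoxin and 26953 to 33397 without, against 196 to 208 and 74 to 136 for COX20. Since no source used here gives the strand setting of the counting, reads of these genes cannot be told apart.

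Averaged over tested genes, the distance between the classes narrowed with Supinoxin. Subunits had a mean log2 CPM of 5.90, 6.04 and 5.99 with Supinoxin and 7.40, 6.80 and 6.94 in untreated libraries. Assembly factors had 4.21, 4.23 and 4.26 with Supinoxin and 4.74, 4.45 and 4.59 in untreated libraries. The first minus the second was 1.69, 1.81 and 1.73 with Supinoxin, against 2.66, 2.35 and 2.35 in untreated libraries, a mean difference of -0.71 on the log2 scale that lay between -0.76 and -0.61 when any 1 library was left out. The summed level of all 48 members was 2285 to 2407 CPM with Supinoxin and 4005 to 6254 CPM in untreated cells. These are descriptions without a test, since the classes were formed with earlier results of these data known.

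Short exonic length was commoner among subunits than among assembly factors, and length moved with the fold change over the whole series. The median exonic length was 2218 bases over the 19 tested subunits and 4359 over the 18 tested assembly factors. Among the 2510 protein-coding genes tested of lowest exonic length (207 to 2996 bases), 49.9% were lower and the median log2 fold change was -0.52, while among the 2510 of highest exonic length 12.0% were lower and the median was 0.38. Of the 18 members in the first of these groups, 15 were lower, with a median of -1.24. The 4 tested subunits of greatest exonic length were UQCRC2 with 4589 bases, COX4I1 with 4816, COX7A2L with 5605 and UQCRB with 12600, and their log2 fold changes were -0.48, -1.27, -0.99 and -0.88. Exonic length joins the exons of all transcripts of a gene. The canonical transcripts of these 4 genes have 1914, 763, 2282 and 8459 bases, in the same order. The 2510 protein-coding genes tested of lowest canonical length (207 to 1844 bases) held 13 of the 19 tested subunits and 8 of the 18 tested assembly factors. Of these 2510 genes 55.9% were lower, with a median of -0.59, against 9.92% and 0.48 for the 2510 of highest canonical length. With smooth trends of exonic length and GC content removed from each library, 28 members were lower and 1 higher. Over all 15947 genes tested, 4821 were then lower and 4259 higher, against 4018 and 3732 without this offset. The subunit median was -1.11 with the offset and the assembly factor median -0.28. Canonical length was not among the trends removed, and a part of length in the fall of the members was otherwise not tested.

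**Figure D4:**
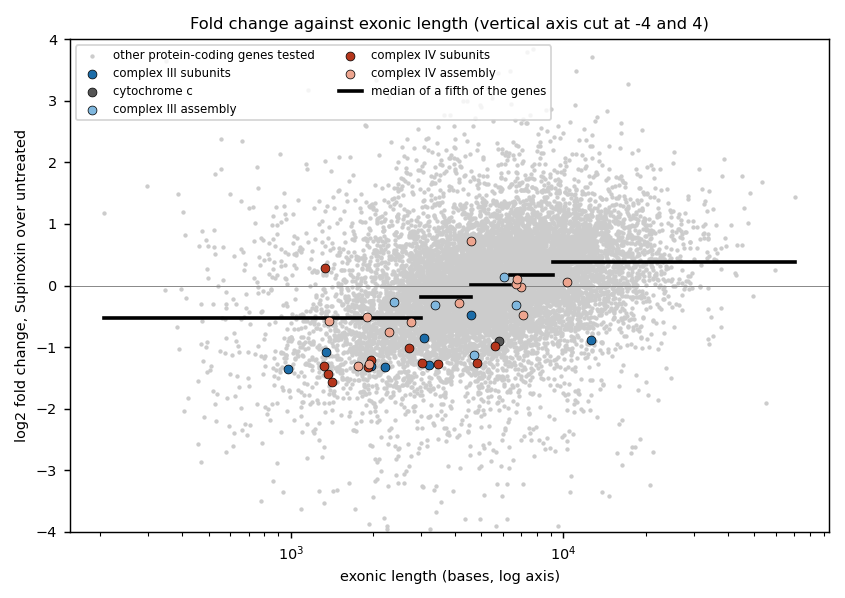
Log2 fold change, Supinoxin over untreated, against exonic length on a log axis for all protein-coding genes tested (grey) and the tested members (coloured by class). Black bars mark the median of each of 5 equal groups of genes by length, from -0.52 to 0.38, and 18 of the 19 subunits lie below 0.

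Promoters of the members were examined because so many fell together, for letters known to be bound by factors of respiratory chain genes: NRF1 (GCGCANGCG), ETS factors such as GABP (CCGGAAG) and YY1 (ATGGCGG), each on both strands and with overlapping matches counted. RefSeq windows of 300 bases (250 before to 50 after the start, GRCh38.p14) were matched for 39 of the 48 members, and not for UQCRB, CYC1, UQCC3, COX4I2, COX6C, COX7A1, NDUFA4, COX11 and SCO2. At least 1 of the 3 motifs stood in 24 of the 39 windows (61.5%), against 35.5% of 10026 windows of protein-coding genes tested and 20.0% of all 35116 windows. The 39 include members that were not tested. Members and genes tested have 1 window per symbol, while the 35116 were not reduced in this way. The share was 59.1% of the 22 windows of members that were lower and 55.6% of the 9 of members that were tested and not lower. The HIF core ACGTG stood in 41.0% of member windows and 26.1% of those of protein-coding genes tested, and the cAMP response element TGACGTCA in 0 of 39 and 3.26%. For the HIF core the share was 45.5% of the 22 windows of lower members and 22.2% of the 9 tested and not lower. By role it was 23.5% of 17 subunit windows and 52.4% of 21 assembly factor windows. These differences were not tested.

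Matches therefore stood in members that fell and in members that did not, and 4 promoters are shown in pairs for that reason, as the 130 bases before the RefSeq start, 5′ to 3′ on the strand of the gene, with whole NRF1 or ETS matches in capitals. COX5B (chr2:97645932-97646061, plus strand), which fell 2.95-fold, and COX10 (chr17:14069374-14069503, plus strand), which was not called, each hold 2 ETS matches in the 300 bases, of which 1 and 2 lie in the stretch shown. COX17 (chr3:119677407-119677536, minus strand), which was lower, and COX18 (chr4:73069717-73069846, minus strand), which was not called, each hold 3 NRF1 matches, all in the stretch shown.
COX5B: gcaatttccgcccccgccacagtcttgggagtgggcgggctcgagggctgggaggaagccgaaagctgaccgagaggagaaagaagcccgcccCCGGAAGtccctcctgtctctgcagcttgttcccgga
COX10: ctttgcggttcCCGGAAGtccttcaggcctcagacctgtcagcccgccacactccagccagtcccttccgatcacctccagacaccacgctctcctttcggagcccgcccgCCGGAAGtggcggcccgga
COX17: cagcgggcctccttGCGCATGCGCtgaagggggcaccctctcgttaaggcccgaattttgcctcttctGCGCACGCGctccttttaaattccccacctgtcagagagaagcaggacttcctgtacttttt
COX18: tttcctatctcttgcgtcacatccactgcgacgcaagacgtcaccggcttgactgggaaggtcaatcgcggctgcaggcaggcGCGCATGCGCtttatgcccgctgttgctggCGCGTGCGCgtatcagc

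A match is a description of letters, and binding of these factors was not measured.

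The mitochondrially encoded subunits of the same complexes moved less evenly than their nuclear partners. MT-CYB, the cytochrome b of complex III, had 2254, 2597 and 3013 CPM with Supinoxin, against 1482, 1466 and 1424 CPM in untreated libraries, and rose 1.80-fold (log2 0.85, SE 0.14, edgeR adjusted p = 0.00147) with the groups apart. In complex IV, MT-CO1 had 9337, 11498 and 11702 CPM with Supinoxin and 8644, 10316 and 8460 CPM in untreated cells (log2 0.25, edgeR adjusted p = 0.184). MT-CO2 had 2884, 3506 and 3778 CPM with Supinoxin and 4960, 4400 and 3755 CPM in untreated cells (log2 -0.37, edgeR adjusted p = 0.0777). Neither passed, but MT-CO1 was higher after the length and GC offset (log2 0.45, adjusted p = 0.0262) and MT-CO2 lower without untreated replicate 3 (log2 -0.47, adjusted p = 0.0382). MT-CO3 had 2968, 3114 and 3690 CPM with Supinoxin and 4657, 4428 and 3885 CPM in untreated cells, and was 1.33-fold lower (SE 0.14 on the log2 scale, edgeR adjusted p = 0.0363). That call was lost in 8 of the 13 alternatives, among them on leaving out any 1 Supinoxin library or untreated replicate 2.

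Further genes of the same pathway, 32 with the 4 mitochondrial ones, were mostly lower: of 24 tested, 16 were lower and 2 higher. Over all genes tested, 25.2% were lower and 23.4% higher. The median log2 fold change of the 24 was -0.49. FDXR, the ferredoxin reductase that feeds electrons to haem A synthesis, had 36.9, 39.0 and 35.7 CPM with Supinoxin, against 261.3, 125.2 and 112.7 CPM in untreated libraries, and fell 4.48-fold (SE 0.29 on the log2 scale, edgeR adjusted p = 0.000634). CHCHD2, a protein that binds complex IV and also acts in the nucleus, had 368, 381 and 387 CPM with Supinoxin, against 1403, 827 and 805 CPM without, and fell 2.67-fold (SE 0.21 on the log2 scale, edgeR adjusted p = 0.000983). NDUFA4L2, the hypoxia-induced paralogue of NDUFA4, had 252, 268 and 289 CPM with Supinoxin and 244, 155 and 181 CPM in untreated cells, so that the pair went opposite ways. Its rise of 1.39-fold (log2 0.48, SE 0.18, edgeR adjusted p = 0.0469) was 0.69 on the log2 scale without untreated replicate 1 (adjusted p = 0.000227), and it did not pass without any other single library or with DESeq2 size factors (adjusted p = 0.0564 to 0.152). The muscle or testis isoforms were near 0: COX6A2 and COX8C were listed at 0, COX7B2 had at most 2 counts in a library, and COX6B2, which was lower (log2 -1.52, edgeR adjusted p = 0.0103), had 7 to 17 counts with Supinoxin and 21 to 38 without.

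Of the 10 members not tested, 7 were listed at 0 in every library: UQCR11, LYRM7, COX8A, COX15, COX16, PET100 and PET117. These include UQCR11 and COX8A, which are subunits in most cells, COX15, which makes haem A, and LYRM7, which holds the Rieske protein before its insertion, so only the listing at 0 is given and no absence is read from it. PET117 shares 78.3% of its exonic bases with KAT14 on the same strand, which held 1080 to 1134 counts with Supinoxin and 1228 to 1588 without. COX16 shares 37.8% with the read-through gene SYNJ2BP-COX16 and COX15 shares 20.7% with another gene, both of which were also listed at 0. COX8A shares 35.4% and PET100 13.1% with same-strand genes, UQCR11 shares a smaller part, and LYRM7 shares none. The remaining 3 had few counts: COX4I2 and COX7A1, given above, and COX14, a partner of COA3, with 2, 4 and 3 counts with Supinoxin and 5, 9 and 18 counts in untreated libraries. With no filter on low counts COX14 was lower (log2 -1.96, edgeR adjusted p = 0.0399).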

How the data were processed

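RNA was sequenced from 3 libraries of H69AR cells with Supinoxin and 3 without. The authors deposited 1 table of raw counts per Ensembl gene. Columns named WT were taken as untreated, since the remaining ones name Supinoxin. The build was GRCh38 and the tools named, with no role stated, were featureCounts, STAR, fastp, edgeR, DESeq2 and Trim Galore 0.4.4, per the submitters' processing notes. Strand setting, annotation release and handling of multi-mapping reads: not given in the sources used here. GENCODE 44 gave names, positions and lengths to 60463 of 60605 identifiers.

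Counts were tested with edgeR 4.0.16 (R 4.3.3): filterByExpr (15947 genes left), TMM, a robust quasi-likelihood test with treatment as the only term, Benjamini-Hochberg adjustment over all genes and a threshold of 0.05, checked on simulated data. Prior counts were 2 for log2 CPM and 0.5 for isoform ratios. There were 13 alternatives: DESeq2 1.42.0 (test or size factors), library size, 2 filters, a replicate block, an offset for length and GC content, and each library left out. Replicate numbers were not taken to pair libraries. Members named with values in every library were, in each class, the 2 of smallest p and those of largest fall and of largest rise or smallest fall, with CYCS, the isoform pairs, every member not called lower and every member not tested. Of other pathway genes these were the mitochondrial ones, NDUFA4L2 and the 2 of smallest p. UQCRC1 and the remaining genes given values were chosen after their values were seen, as were the promoters shown. Members and lists were chosen with earlier results of these data known.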

Additional observations from a re-analysis of the deposited data

How the results depend on the processing

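The number of members lower, 27 with all libraries, ran from 23 to 28 over the 13 alternatives. Library size alone, under which the all-gene median shifted by 0.14 (log2), gave 23. Over all genes the number lower was 4018 with all libraries (15947 tested). It ran from 2789 without Supinoxin replicate 1 (16337 tested) to 4821 with the length and GC offset (15947 tested), and was 3140 with library size alone. Leaving out 1 library gave 0 to 1 members higher and 1 to 3 other pathway genes higher, and DESeq2 size factors gave 1 of the latter genes. Medians with 1 library left out ran from -1.32 to -0.83 for complex III subunits, from -0.38 to -0.12 for complex III assembly factors, from -1.39 to -1.03 for complex IV subunits and from -0.49 to -0.33 for complex IV assembly factors. With library size alone the medians were -0.16 for complex III assembly, -0.35 for complex IV assembly and -0.35 for other pathway genes. With the length and GC offset they were -0.93 for complex III subunits, -0.15 for complex III assembly and -0.29 for complex IV assembly. With 1 library left out, 9 to 16 subunits and 1 to 3 assembly factors were lower by at least 2-fold, and the offset gave 1 such assembly factor. These counts were added after seeing the data. Of all genes tested, 11.6% met the 2-fold rule with all libraries and 8.36% without untreated replicate 1, and the share is not given for other settings. Subunits minus assembly factors was -0.51 with no filter on low counts. The cause of these moves was not tested.

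Members not called changed sign as follows. With the length and GC offset, TTC19 was -0.0017, UQCC3 0.016, COX10 -0.079, COX19 -0.084, SCO1 -0.27 (edgeR adjusted p = 0.0469) and SCO2 0.092. COX18 was 0.13 with library size alone, 0.0063 with no filter, 0.024 without Supinoxin replicate 2 and 0.10 without untreated replicate 1. With 1 library left out, COX18 ran from -0.077 to 0.10, UQCC3 from -0.46 to 0.017 (above 0 without untreated replicate 1), COX6A1 from -0.057 (without Supinoxin replicate 2) to 0.54, and COX19 was -0.035 without untreated replicate 2.

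Same-numbered libraries deviated from their group means with correlations of -0.13, -0.04 and -0.03, and differently numbered ones with -0.11 to 0.14. The numbers thus showed no pairing, but 3 libraries in a group are too few to settle it. With the replicate block 26 members were lower and 1 higher.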
